A study of Oryza sativa with 6 samples.

Results

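Of the 29689 rice loci carried by the array, 182 (0.613%) had a deposited ratio far above control on every array of the series. The arrays covered a short and a long exposure of roots to hexavalent chromium. They were chosen by their measured ratios: the deposited log2 ratio of treated over control signal, averaged over the probes of a locus, had to be 2 or more on each of the 6 arrays, and a probe of the locus had to have a treated signal well above background on all 6. The ratios against control are therefore given as a description, with no test. The ratio alone was met by 183 loci, and 1 of them, Os04g0516600, was left out because no probe of it had such a treated signal on more than 5 arrays.

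Roots of 6-day-old seedlings of the rice cultivar TN-67 had been kept in 50 µM Cr(VI), or in water as the control. The short group (3 arrays) pooled roots taken after 1 h and after 3 h, and the long group (3 arrays) held roots taken after 24 h. Every array compared treated RNA, labelled with Cy5, with RNA of water-treated roots, labelled with Cy3, so that dye and treatment cannot be told apart. The labels call the replicates biological, give no further allele or agent, and do not say how many plants made up a sample or whether arrays shared control RNA.

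Hexavalent chromium is a strong oxidant that enters root cells largely through sulfate carriers and is reduced inside the cell, a reaction that yields reactive oxygen species and damages proteins, lipids and DNA. Plant roots are known to meet such stress with transcripts for detoxifying enzymes such as glutathione S-transferases, for transporters, for protein folding and for stress signalling. None of the 182 loci could be assigned to such a function here, because neither the files nor the reference table paired a locus with a name, and each is called by its locus number, whose first digits give the chromosome.

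Spots well above background made up 68.14% to 82.53% of each array in the control channel and 73.05% to 80.26% in the treated channel, and no spot was saturated. Short replicate 1 lay on slide 1, short replicates 2 and 3 on slide 2, and the 3 long arrays on slide 3. The control channel of the slide 2 arrays had a local background of 71.5 to 73.5, against 36 to 40.5 on the other arrays. Since the exposures shared no slide, the slide cannot be told apart from the exposure in anything below.

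The mean of the 6 deposited log2 ratios ran from 2.17 to 7.76 over the 182 loci, with a median of 3.61 and quartiles of 3.10 and 4.25. A ratio of 3 or more on every array was kept by 75 loci, of 4 or more by 16, of 5 or more by 6 and of 6 or more by 2. The median over the loci was 3.41, 3.67 and 3.41 on the short arrays and 3.84, 3.88 and 3.42 on the arrays at 24 h. The arrays of the bulk tissue cannot tell more RNA per cell from more cells of a type. In the heat map of all loci by array, long replicate 3 is the darkest of the long columns for most rows. It held the lowest long value for 114 loci (62.6%), whereas it was the lowest long array for 33.7% of all loci and for 54.7% of the 722 loci with a long mean of 2 or more.

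**Figure D1:**
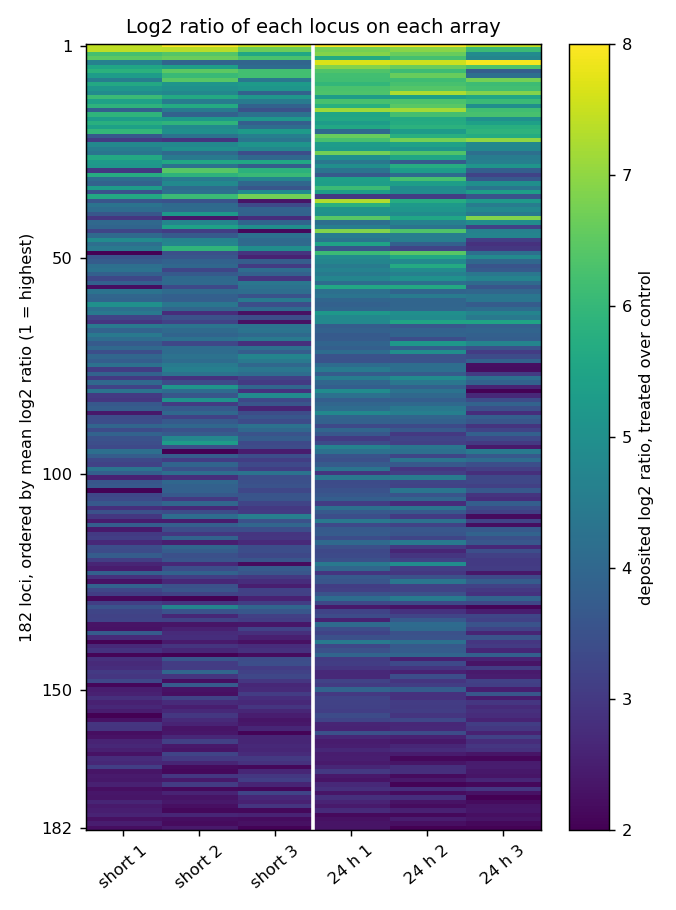
Deposited log2 ratio of treated over control (colour, from 2 to 8) for the 182 loci in rows, ordered by their mean, on the 6 arrays in columns. Several rows that are light at 24 h are dark after the short exposure.

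Across these loci, the ratios of 2 arrays correlated at 0.746 to 0.849 within the short exposure, at 0.812 to 0.942 within the long exposure and at 0.433 to 0.613 between exposures. These correlations describe loci that share the arrays and that all had to pass one floor. The ratios of the 182 loci also scattered more between replicates than those of other loci: the median SD was 0.296 (short, n = 3) and 0.314 (long, n = 3), against 0.173 and 0.173 for the rest.

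Both exposures had loci of their own above the floor. On all 3 short arrays 406 loci reached a log2 ratio of 2, on all 3 long arrays 476 did, and the 183 shared loci were 45.1% of the first set and 38.4% of the second. A further 91 loci reached 2 on exactly 5 arrays, and 17 loci lay at -2 or lower on all 6. Over all 23496 genes tested with limma, 30.6% were called higher than control and 24.2% lower after the short exposure, and 33.7% and 30.9% at 24 h (adjusted p under 0.05). At 2-fold or more, these shares were 4.61% higher and 0.638% lower after the short exposure, and 4.88% and 3.42% at 24 h. The balance turned with the scaling: with Agilent's processed signals, 5669 genes were higher and 7649 lower after the short exposure, and with median centring in place of loess, 5169 were higher and 8609 lower at 24 h. These shares are the background of the contrast that the choice of loci used, and nothing is read from them for the 182.

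The floor had no gap around it. Just inside lay Os09g0385700, with a lowest ratio of 2.003, Os05g0366800 with 2.005 and Os08g0315000 with 2.008. Just outside lay Os01g0342900 with 1.998, Os01g0954000 with 1.995 and Os01g0685400 with 1.987. Os09g0385700 was low throughout, with 2.23, 2.40 and 2.06 on the short arrays and 2.31, 2.00 and 2.02 at 24 h. Os05g0366800 was near the floor on 1 array only: it read 2.00, 3.47 and 2.91 on the short arrays and 6.08, 6.44 and 4.18 at 24 h.

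The control channel of many of these loci was dim, and it counts as measured below where it was well above background. That was so for 123, 100 and 92 of them on the short arrays and for 158, 140 and 139 at 24 h, or 50.5% to 86.8% of the loci. On all 6 arrays it was so for 90 loci. It missed that limit on all 3 short arrays for 58 loci, on all 3 long arrays for 22 and on all 6 arrays for 19. For 14 loci the control was below that limit on all short arrays and above it on all long arrays, and for 0 loci the reverse. Where the control of an exposure was never measured, the ratio is only a bound. The 58 short bounds, taken per channel after loess with Aquantile scaling, ran from at least 1.52-fold to at least 36.11-fold, with a median of 2.87-fold, and 20 long bounds from at least 1.62-fold to at least 29.35-fold, with a median of 3.79-fold. They are open to dye bias.

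The locus with the highest mean deposited ratio, Os04g0206600, shows what such a bound rests on. Its processed treated signal was 1984, 2116 and 1547 on the short arrays and 2791, 2074 and 1841 at 24 h. Its processed control signal stayed between 8.2 and 11.5 on all 6 arrays and was not well above background on any of them. The deposited log2 ratio was accordingly high on every array: 7.43, 7.99 and 7.56 on the short arrays and 8.12, 7.97 and 7.47 at 24 h, with overlapping groups. As a bound, the treated signal was at least 28.15-fold above control after the short exposure and at least 29.35-fold at 24 h.

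Os04g0203600, also on chromosome 4, read 7.40, 7.36 and 6.66 on the short arrays and 6.74, 6.94 and 6.09 at 24 h. Its control was below the limit on all short arrays, where the bound was at least 36.11-fold, and well above background on all long arrays. After the short exposure the bounds put Os04g0203600 above Os04g0206600 and the deposited ratios put it below, so no order between them is given. Os04g0206600 and Os04g0203600 were the 2 loci with a ratio of 6 or more on every array. The next loci by mean deposited ratio varied more between arrays. Os08g0156100 read 6.24, 6.40 and 5.57 on the short arrays and 6.89, 6.59 and 4.89 at 24 h. Os01g0370900 read 6.50, 6.62 and 6.27, then 5.68, 6.22 and 4.73. In both, long replicate 3 was the lowest of all arrays.

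Os09g0400400 and Os03g0226200 were also lowest on long replicate 3. For Os09g0400400 the short values were 5.84, 6.49 and 6.18 and the long values 6.36, 6.12 and 3.79. For Os03g0226200 they were 5.32, 6.06 and 6.17, then 6.19, 6.60 and 4.20. The SD at 24 h was 1.42 and 1.28 (n = 3), against 0.32 and 0.46 after the short exposure, and for all 4 of these loci the control stayed below that limit on all short arrays. The remaining 2 of the 8 highest, Os09g0483200 and Os01g0628000, had higher deposited ratios on every array at 24 h than on any short array. Os09g0483200 read 4.63, 3.95 and 3.96 on the short arrays and 7.66, 7.54 and 7.91 at 24 h. Os01g0628000 read 5.54, 5.35 and 4.09 and then 6.88, 6.64 and 6.31. The control of Os09g0483200 was below that limit on all short arrays and that of Os01g0628000 on all arrays, so the size of neither rise was measured. In the loess ratios Os01g0628000 differed by 0.50.

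Among the loci whose control was measured on all 6 arrays, Os10g0527400 and Os10g0525600, which lie in one stretch of chromosome 10, had a ratio of 5 or more throughout. The processed control signal of Os10g0527400 was 818.9, 732.5 and 554.8 on the short arrays and 936.2, 1318 and 779.1 at 24 h. The treated signal was 29273, 23822 and 19468, then 72147, 111522 and 56878. The deposited ratio was 5.16, 5.02 and 5.13 on the short arrays and 6.27, 6.40 and 6.19 at 24 h, so that the exposures did not overlap and the spread within each was small. Os10g0525600 gave 5.62, 5.12 and 5.26, then 5.97, 6.26 and 6.11. Os08g0177400 had the highest short mean of the loci with a measured control, with 5.71, 5.87 and 6.07, and it read 3.67, 4.09 and 3.22 at 24 h.

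**Figure D2:**
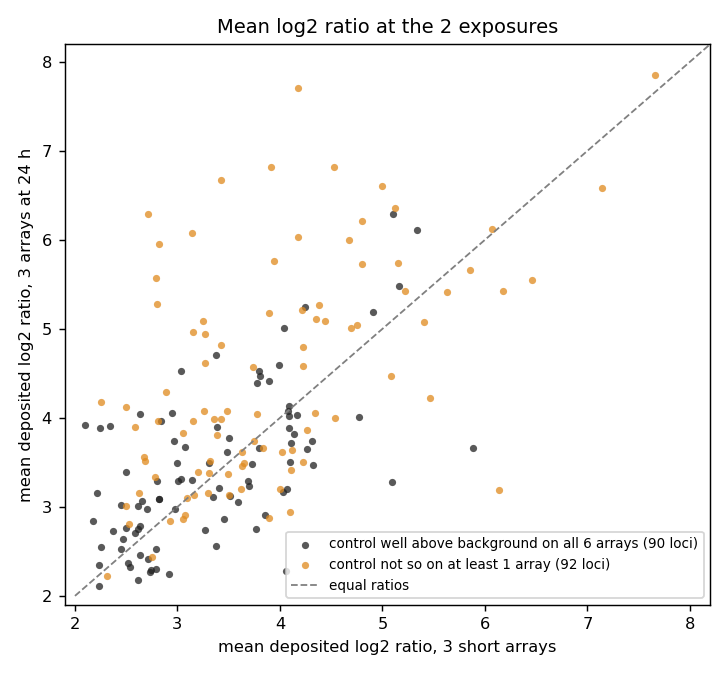
Mean deposited log2 ratio on the 3 short arrays (horizontal) and on the 3 arrays at 24 h (vertical) for each of the 182 loci, black where the control signal was measured on all 6 arrays (90 loci) and orange where it was not (92 loci). Of the 182 loci, 108 lie above the dashed line of equal ratios, and the points far above it are mostly orange.

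Whether the response at 24 h was larger or smaller than the early one was tested as the difference of the log2 ratios. The choice of loci set one floor for both exposures and no direction between them. It did use the deposited ratios of both, so a locus near the floor at one exposure could not lie much lower at the other. The genes that serve as background below had no such floor. For the test, the median intensities were background-corrected with an offset that pulls the ratios of dim genes toward 0. They were then loess-normalized and fitted in limma over all 23496 genes, and 180 of the 182 loci could be tested. Os02g0533800 and Os07g0241700 kept too few values after outlier spots were left out, 4 and 2.

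Of the 88 tested loci with a measured control, 30 (34.1%) were called higher at 24 h, 14 (15.9%) were called lower and 44 were not called (limma, adjusted p under 0.05 over all genes). Over all 19137 genes with a control measured in the same way, 16.6% were called higher and 24.4% lower, so in this fit the 88 loci held more calls higher and fewer calls lower than that background. At 2-fold or more, 14 of the 88 (15.9%) were higher, against 1.76% of those genes. At that size 3 of the 88 were lower, which is near the 4.11% of those genes. The median difference of the 88 loci was 0.146, and 0.129 in the deposited ratios. For 56 of the 88, the 95% interval of the difference lay within a log2 unit (2-fold) of 0 on either side. Of the 44 loci without a call, 38 had an interval within that range and 21 within 0.5 of 0, so for the other 6 the interval includes a 2-fold difference. These counts include 5 loci of chromosome 2, described with the probes below, whose fitted probe is not the one with the high ratio. The same holds for Os03g0724700. Without the 5 loci of chromosome 2, 30 of 83 loci were called higher, 14 lower and 39 not called. Os03g0724700 is still among these 83. Of the 83 loci, 51 had an interval within 2-fold, and of the 39 without a call 33 had an interval within 2-fold and 16 within 0.5 of 0.

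The number of calls depended on single arrays and on the processing. With the ratios as deposited, 20 of the 88 loci (22.7%) were called higher and 13 (14.8%) lower, against 18% and 18.6% of the genes with a measured control in the same fit, so the share higher came near its background. With those ratios centred on the median, 14 (15.9%) and 12 (13.6%) were called, against 9.69% and 19.9%. With median centring in place of loess, 21 (23.9%) were higher and 22 (25%) lower, against 5.52% and 31.6%, so that the calls were balanced among the 88 loci. Without long replicate 2, 19 (22.1%) were higher and 6 (6.98%) lower, against 12.2% and 19%. Without short replicate 2, 9 loci (10.3%) were called lower, against 21.8%. Without long replicate 3, 9 (10.6%) were called lower, against 22.8%. The share of background genes called was thus also smaller in these fits than in the main fit. With slide as a random block, 31 (35.2%) were higher and 17 (19.3%) lower, against 19.3% and 27.5%. Without the 2 short arrays on slide 2, the median difference over the members tested was 0.445, with the remaining short array assumed to vary like the long ones.

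Over all 180 tested loci, 84 (46.7%) were called higher at 24 h, 49 of them at least 2-fold, and 20 (11.1%) lower, 6 of them at least 2-fold. The background over all genes was 16.4% higher and 22.3% lower, or 2.2% and 3.77% at 2-fold. The 6 falls of at least 2-fold among the 180 loci came near that last share. The median difference was 0.454, against -0.0286 over all genes. The 92 tested loci whose control was not measured on every array contributed 54 calls higher and 6 lower, some of them against a control that was not measured on any array of an exposure, with a median difference of 0.686 in the loess ratios and 0.387 in the deposited ratios. The control was measured for the fewest members on the short arrays of slide 2, whose control background was high, and the part of that background in these calls was not tested. With the deposited ratios, 40 of the 180 (22.2%) were called higher and 16 (8.89%) lower, against 17.2% and 17.8% of all genes in that fit. With those ratios centred on the median, 32 (17.8%) and 16 were called, against 10% and 19.2%. Calls lower numbered 13 (7.26%) without short replicate 3 and 10 (5.62%) without long replicate 2, against 17.3% and 17.7% of all genes in those fits.

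In the deposited ratios, to which no offset was added, the 3 values at 24 h lay above all 3 short values for 55 of the 182 loci (30.2%) and below them for 26 (14.3%). Over all loci on the array, 24.8% lay above and 21.8% below. The median of the deposited difference was 0.197 for the 182 loci and 0.0728 for all loci.

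**Figure D3:**
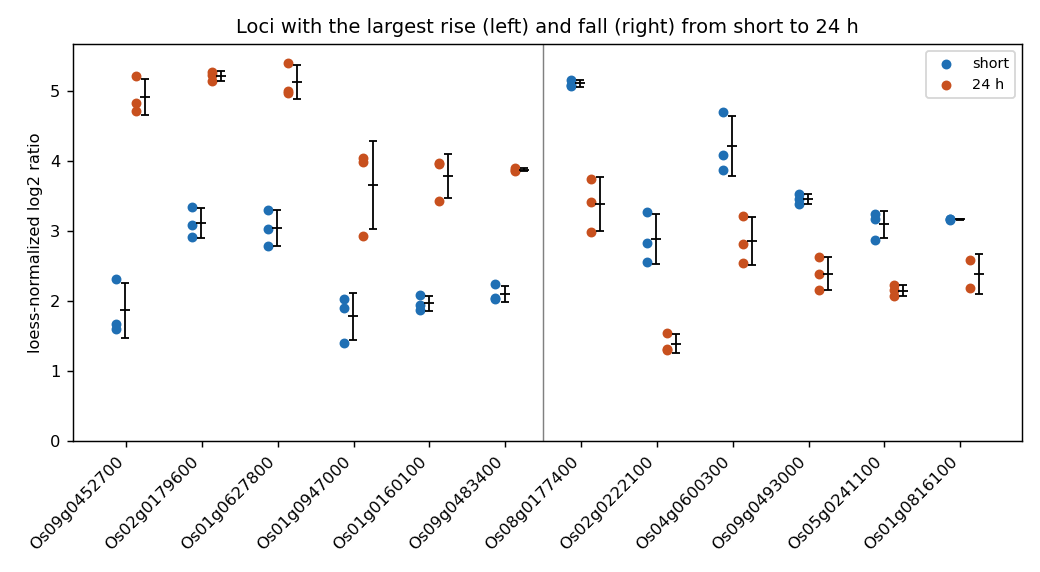
Loess-normalized log2 ratio on each array (points, blue short and orange 24 h, n = 3 each; 2 long values for Os01g0816100) with the mean and SD (black) for the 6 loci with the largest rise and the 6 with the largest fall among those with a call, no overlap of the exposures and both channels measured on at least 1 array of each. The largest rise, 3.05, is Os09g0452700, and the largest fall, -1.73, is Os08g0177400.

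The largest called rise among loci with both channels measured at least once per exposure was that of Os09g0452700. Its loess-normalized log2 ratio was 1.67, 1.61 and 2.32 on the short arrays and 4.83, 5.21 and 4.72 at 24 h, with no overlap. The difference was 3.05 (SE 0.202, adjusted p = 3.58e-05, limma). Its control was well above background on 1 short array and on all long arrays, and the deposited ratios were 3.03, 2.91 and 4.33, then 6.26, 6.76 and 7.01.

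Os02g0179600 and Os01g0627800 rose by similar amounts. For Os02g0179600 the ratios were 3.34, 3.08 and 2.92, then 5.28, 5.15 and 5.23, a rise of 2.10 (SE 0.115, adjusted p = 1.81e-05). For Os01g0627800 they were 2.80, 3.30 and 3.03, then 5.41, 4.97 and 5.0, a rise of 2.08 (SE 0.157, adjusted p = 5.81e-05). Their controls were measured on 1 and 2 of the short arrays. Os01g0947000 had a wider spread, 1.40, 1.91 and 2.04 against 3.99, 4.05 and 2.93, and rose by 1.87 (SE 0.294, adjusted p = 0.0016). This call was lost with the deposited ratios, where the difference was 1.67. Over all alternatives its adjusted p ran from 8.57e-05 to 0.135.

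Os01g0160100 and Os09g0483400 rose with the control measured on all 6 arrays. Os01g0160100 went from 2.09, 1.95 and 1.88 to 3.96, 3.98 and 3.43, a difference of 1.82 (SE 0.150, adjusted p = 8.02e-05). Os09g0483400 had the smallest SE of the 6: 2.04, 2.03 and 2.24 became 3.85, 3.91 and 3.88, a difference of 1.78 (SE 0.0865, adjusted p = 1.33e-05). Both were near the floor of the choice after the short exposure, and their differences stayed called under every alternative run.

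The largest fall belonged to Os08g0177400. Its loess ratios were 5.17, 5.08 and 5.09 on the short arrays and 3.42, 3.75 and 2.99 at 24 h. The difference was -1.73 (SE 0.170, adjusted p = 0.000177), with a 95% interval from -2.12 to -1.34. The control of this locus was measured on all 6 arrays.

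Os02g0222100 fell from 2.56, 3.28 and 2.83 to 1.55, 1.32 and 1.30, a difference of -1.50 (SE 0.170, adjusted p = 0.000337). Os04g0600300 fell from 3.87, 4.70 and 4.08 to 3.23, 2.82 and 2.55, by 1.35 (SE 0.231, adjusted p = 0.0024). In both, every long value lay below every short value. Os09g0493000 went from 3.53, 3.40 and 3.46 to 2.63, 2.16 and 2.39, a difference of -1.07 (SE 0.121, adjusted p = 0.000342), with the control measured on 1 short and 2 long arrays. Os05g0241100 fell by 0.95 (SE 0.110, adjusted p = 0.000377) and Os01g0816100, with 2 long values left after an outlier spot, fell by 0.78 (SE 0.130, adjusted p = 0.00305).

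The control channel itself was compared between exposures, since it enters each ratio. On quantile-normalized log2 Cy3 values, 16 of the tested loci had a higher control at 24 h and 1, Os09g0492900, a lower one, against 2.42% and 1.77% of all genes. Of the 16, 9 also had a ratio called higher at 24 h and 0 a ratio called lower. The number of control calls changed with the arrays used, for these loci and for all genes, of which the main fit called 983. Without short replicate 3, long replicate 1 or long replicate 2, 0 genes were called at all. In these 3 fits 41, 37 and 37 of the loci, and 5038, 4298 and 4342 of all genes, had an unadjusted p under 0.05 in limma. Without short replicate 1 there were 33 higher and 6 lower, against 1963 and 1784 of all genes. Without short replicate 2 there were 9 and 0, against 237 and 138, and without long replicate 3 there were 6 and 0, against 104 and 19. With scaling to the 75th percentile the split was 18 higher and 58 lower, with 5912 of all genes called, so no direction is given for the control of these loci.

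Loci of the group lay close together on the chromosomes. Locus numbers rise along each chromosome, and 63 of the 182 loci (34.6%) had another member within 2000 of their number, forming 24 runs, 17 of 2 loci and 7 of 3 or more. By comparison, 9.88% of the other loci on the array lay within 2000 of a member. Chromosome 9 carried 21 members of 1635 loci (1.28%) and chromosome 8 carried 17 of 2025 (0.84%), whereas chromosome 11 carried 1 of 1824 (0.0548%) and chromosome 12 carried 5 of 1740 (0.287%). Inside the runs lay 72 loci of the array that were not members, and 5 of them (6.94%) had a ratio of 1 or more on every array, against 2.09% of all loci. In 9 runs, with 23 members, no other locus of the array lay between the members. These counts include the run of 6 on chromosome 2, where 5 loci have probes named for shared sources. As described below, those 5 may be 1 signal read several times, and the counts were not repeated without them.

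**Figure D4:**
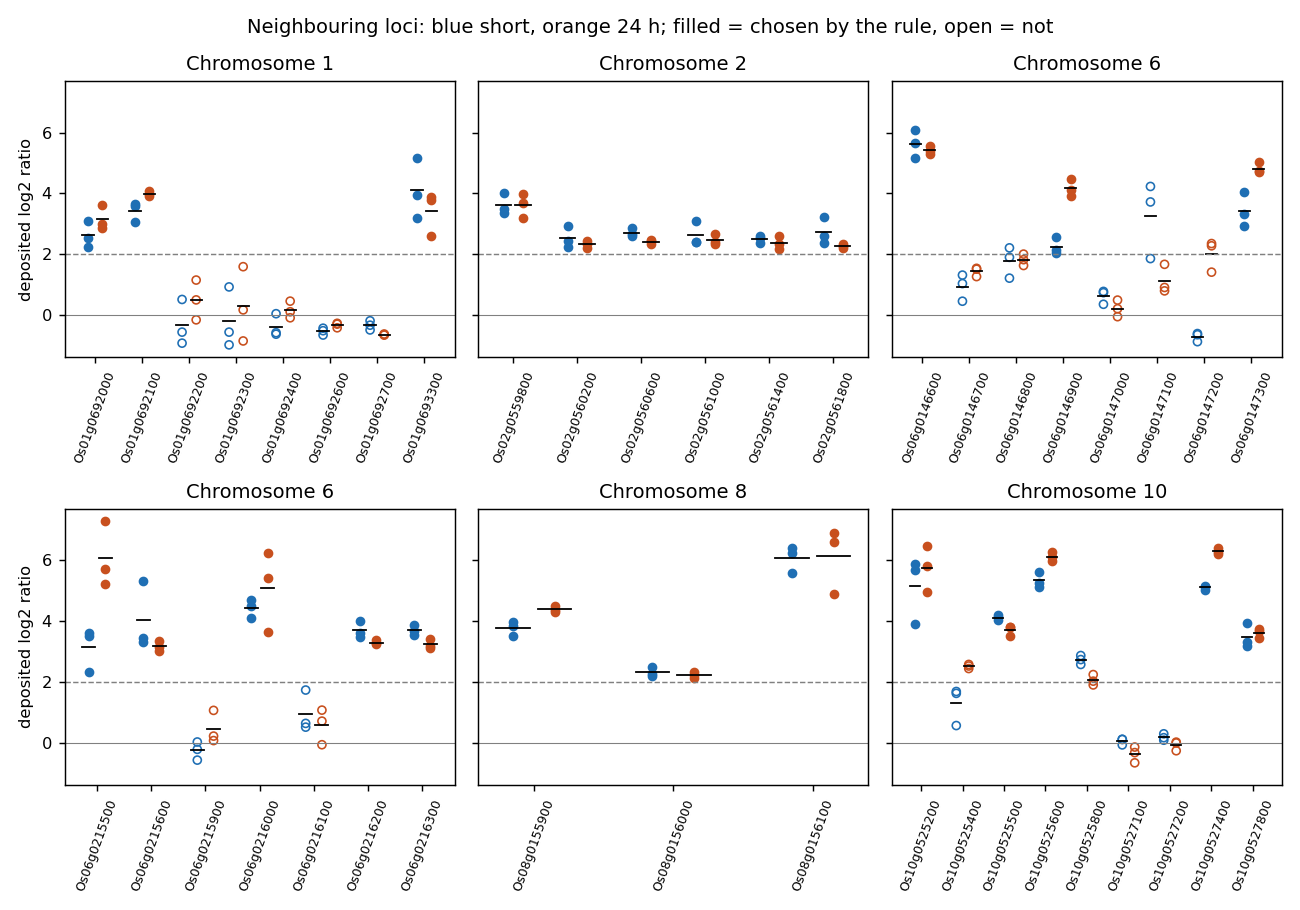
Deposited log2 ratio on each array (blue short, orange 24 h, black bars the means) for the loci of 6 runs in the order of their numbers, filled for members and open for other loci on the array. Members at 2 or more stand beside loci near 0 in the runs of chromosomes 1, 6 and 10, whereas the runs of chromosomes 2 and 8 hold members only. In the run of chromosome 2, 5 of the members have probes named for shared sources.

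The run on chromosome 10, Os10g0525200 to Os10g0527800, held 5 members among 9 loci. Os10g0527400 and Os10g0525600, the pair with the high ratios above, both rose by 1.26 from short to 24 h (SE 0.0842 and 0.103, adjusted p = 3.79e-05 and 7.89e-05). Os10g0525500, next to Os10g0525600, read 4.02, 4.12 and 4.19, then 3.82, 3.80 and 3.52, with a loess difference of -0.04 (adjusted p = 0.778). Os10g0527800 differed by 0.28 (adjusted p = 0.33), whereas Os10g0525200 had no control measured on any array. Of the loci in this stretch that were not members, Os10g0525800 read 2.87, 2.57 and 2.74 on the short arrays and 1.90, 2.03 and 2.24 at 24 h, while Os10g0527100 and Os10g0527200 lay between -0.66 and 0.30.

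On chromosome 6, Os06g0215500 to Os06g0216300 held 5 members among 7 loci. A control was measured on every array for 3 of them. Os06g0216200 read 3.60, 4.01 and 3.47, then 3.36, 3.25 and 3.27. Os06g0216300 read 3.68, 3.86 and 3.54, then 3.40, 3.18 and 3.13, and fell by 0.44 in the loess ratios (SE 0.118, adjusted p = 0.0191). Os06g0215600 read 3.45, 5.32 and 3.32, then 3.36, 3.14 and 3.00, with 1 short array apart from the others. Os06g0215500 read 3.59, 3.50 and 2.33, then 7.28, 5.72 and 5.22, but its control was not measured on any array, so its ratios are bounds at both exposures and no difference is given.

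The second run of chromosome 6, Os06g0146600 to Os06g0147300, had 3 members among 8 loci, and none had a control measured on a short array. Their short ratios are therefore bounds, and no difference between the exposures is given. For Os06g0146600 the 2 kinds of ratio went opposite ways. Its deposited ratios were 6.08, 5.65 and 5.15 on the short arrays and 5.30, 5.39 and 5.55 at 24 h, with a lower mean at 24 h (5.42 against 5.63). Its loess ratios were 2.88, 2.63 and 2.56, then 5.04, 5.03 and 4.98. Its control was measured on all long arrays. Os06g0146900 read 2.15, 2.04 and 2.57, then 4.12, 4.48 and 3.92 in the deposited ratios, and Os06g0147300 read 3.31, 4.04 and 2.93, then 4.72, 5.02 and 4.69, with no overlap in either.

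The 3 adjacent loci of chromosome 8 differed in size. Os08g0156100, described above, averaged 6.07 ± 0.44 (SD, n = 3) after the short exposure, Os08g0155900 3.78 ± 0.24 and Os08g0156000 2.32 ± 0.16. At 24 h the means were 6.13 ± 1.08, 4.39 ± 0.10 and 2.23 ± 0.10. Os08g0155900 was called higher at 24 h, by 0.62 (SE 0.132, adjusted p = 0.00672), and the other loci were not called. Ratios of different probes are set side by side here as fold responses, not as levels of transcript.

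On chromosome 1, the run from Os01g0692000 to Os01g0693300 held 3 members among 8 loci. Os01g0692000 rose by 0.72 (adjusted p = 0.000362), with the control measured on 1 short array, and Os01g0693300 differed by 0.08 (adjusted p = 0.811). Os01g0692100 read 3.65, 3.04 and 3.59, then 3.98, 4.06 and 3.91, with no control measured on a short array. The run on chromosome 7, Os07g0635500 to Os07g0638400, was the loosest, with 4 members among 25 loci, all with a control measured on every array. Os07g0637300 was even across the arrays, with 2.79, 3.07 and 3.06, then 2.96, 2.93 and 3.03. Beside it, Os07g0635500 fell by 0.48 (adjusted p = 0.0364) and Os07g0638300 rose by 1.23 (adjusted p = 0.0429). The rise of Os07g0638300 is that of its brightest probe, which had the lowest mean ratio of its 4 probes. In the deposited means that probe went from 2.25 to 3.35 and another from 3.78 to 4.83. The remaining probes went from 4.83 to 4.93 and from 4.72 to 4.56. Apart from the brightest, each probe had its control measured on 2 or 3 arrays only.

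Pairs of neighbours went together in some places and apart in others. Os09g0492900 and Os09g0493000 both fell: the first fell by 0.67 (adjusted p = 0.00203) and the second fell by 1.07. Os06g0697500 and Os06g0697600 both rose, by 1.34 (adjusted p = 0.000766) and 1.66 (adjusted p = 0.00231). The pair Os04g0600200 and Os04g0600300 parted: the first read 2.49, 2.70 and 2.64, then 3.11, 3.08 and 2.83, with a loess difference of 0.36 (adjusted p = 0.0719), and the second fell by 1.35.

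Probe design bears on the list. A single probe stood for 134 of the loci and several for 48 (26.4%, against 26.3% of all loci on the array). In 33 of the 48, every probe was at 2 or more on every array, and in 36 the probe means lay within 1 of each other. In 15, a probe fell below 2 on at least 1 array, and in 9 the probe means lay 2 or more apart. The words in the probe names gave an mRNA as the source of the brightest probe for 111 loci (61%, against 69% of all loci), COMBINER_EST for 56 (30.8% against 23.4%) and COMBINER for 15 (8.24% against 7.57%).

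**Figure D5:**
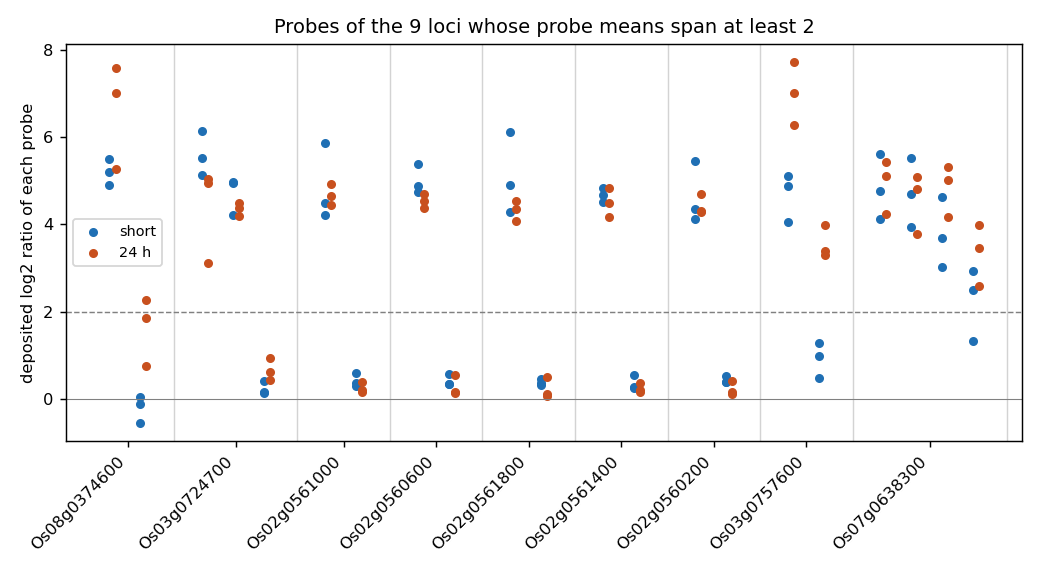
Deposited log2 ratio of each probe on each array (blue short, orange 24 h) for the 9 loci whose probe means lie 2 or more apart, with the floor of 2 dashed. In 7 of the 9 loci, 1 probe averages under 1 while another lies above the floor on every array.

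Of these 9 loci, 7 reached the floor through the mean of their probes although 1 probe averaged under 1. The probes of Os08g0374600 averaged 5.91 and 0.71 over the 6 arrays, and those of Os03g0724700 averaged 4.98, 4.53 and 0.45. For Os03g0724700 the fit keeps the probe at 0.45, whose control was measured on all 6 arrays. The probe of Os08g0374600 with the high ratio was the 1 named for the 5'UTR and coding sequence, and the other was named for the coding sequence and 3'UTR. That other probe had a treated signal well above background on 1 array and a control on 0. Its low ratio is therefore not a measured lack of response. Both probes of Os03g0757600 were higher at 24 h than after the short exposure, with means of 5.84 and 2.24. The lower of these had a treated signal well above background on 4 arrays and a control on 0, so its ratios rest on a control that was not measured. The 4 probes of Os07g0638300 averaged 4.88, 4.64, 4.31 and 2.80.

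The other 5 are consecutive loci on chromosome 2, Os02g0560200, Os02g0560600, Os02g0561000, Os02g0561400 and Os02g0561800, part of a run of 6. Each had a probe with a mean ratio between 4.53 and 4.77 and a brighter probe with a mean between 0.299 and 0.354. The 5 low probes carried a single accession in their names, which was also that of the nearby locus Os02g0561900, not a member, and the 5 high probes carried another single accession. Whether these are 5 signals or 1 signal read several times cannot be told apart here, and the 5 loci are uncertain as separate members. Since the fit keeps the brightest probe, it carries their low ratio: the loess means were 0.36 to 0.42 after the short exposure and 0.23 to 0.28 at 24 h. None of the 5 was called, and without them the count of loci called higher stayed at 84 and the median difference was 0.483.

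Other readings of the ratio gave other numbers of loci. With normexp and loess in place of the deposited ratios, 83 loci reached 2 on every array, all of them among the 182, so the other members met the floor in the deposited ratios but not in these. Centring the deposited ratios on the median gave 197 loci, 179 of them shared. The brightest probe alone gave 184, of which 174 were shared, and asking every probe to reach 2 gave 167.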

How the data were processed

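Agilent Feature Extraction 10.7.1.1 wrote the spot intensity values, per the file headers: median pixel brightness of spot and local background on a linear scale, and processed signals, from which Feature Extraction had already taken the background and the dye bias. The authors deposited, besides, a table of log2 ratios. Over 41882 probes with a single spot these equalled log2 of processed Cy5 over processed Cy3 within 2.7e-06, so unit and direction were settled, and they were not centred.

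The 182 loci, the gene lists and the comparisons were chosen with earlier results of these data known. "A ratio of at least 2" was read as a log2 ratio of 2. Flags for signal well above background are those of the scanner files. For the difference between exposures, median intensities (mean intensities were not used here) were corrected with normexp (offset 50) and loess in limma 3.58.1 (R 4.3.3). Control and outlier spots had weight 0 in loess, outlier spots (163 to 1936 of 43734 per array) were then dropped, spots of a probe were averaged and the brightest probe of a locus was kept. A gene was tested if either channel was well above background on 3 or more arrays and each exposure kept 2 values. A single model gave both means and their difference, with 4 residual and 4.36 prior degrees of freedom, and p-values were adjusted by Benjamini-Hochberg over 23496 genes. Control channel values were quantile-normalized. The number of arrays limits the precision, and p-values measure the spread between these samples. The steps were run on simulated data with a single noise level for all genes and no dye effect. That setting leaves out the wider scatter of these loci.

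None of the 29689 loci matched the reference table, so 0 of 30 gene families could be filled, and root identity was not checked against markers. No sequence is shown, since none was held for these loci. The loci given by name are the 8 highest mean ratios, the 6 largest differences each way with adjusted p under 0.05, no overlap and both channels measured on at least 1 array of each exposure, members of runs, and 3 loci on each side of the floor. A planned ranking by control signal was not made, since levels of different probes are not comparable. Same-numbered samples of the exposures deviated from their group means with correlations of -0.236, -0.117 and -0.100, and other pairs with -0.0245 to 0.125. The main fit did not pair them. Whether same-numbered samples were grown or handled together cannot be told from these values.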

Additional observations from a re-analysis of the deposited data

Results flagged for a closer look

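The log2 ratio against control differed between the short exposure and 24 h for 14 of the loci named above, by limma's test of the difference itself over all genes. Of the 8 with a higher ratio at 24 h, Os01g0160100 differed by 1.82 (adjusted p = 8.02e-05) and Os09g0483400 by 1.78 (adjusted p = 1.33e-05) with the control measured on all arrays. Os09g0452700 differed by 3.05 (adjusted p = 3.58e-05), Os02g0179600 by 2.10 (adjusted p = 1.81e-05), Os01g0627800 by 2.08 (adjusted p = 5.81e-05) and Os01g0947000 by 1.87 (adjusted p = 0.0016), each with a control below the limit on 1 or 2 short arrays. Os09g0483200 differed by 3.86 (adjusted p = 3.49e-06), with a control below the limit on all short arrays, where the ratio is only a bound of at least 2.93-fold, so the size of this difference was not measured. Os01g0628000 differed by 0.50 (adjusted p = 0.0138) with no control measured on any array, so that both ratios are bounds, and this call was lost with a trended, robust prior and without long replicate 2.

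A lower ratio at 24 h was called for the other 6: -1.73 for Os08g0177400 (adjusted p = 0.000177), -1.50 for Os02g0222100 (adjusted p = 0.000337), -1.35 for Os04g0600300 (adjusted p = 0.0024), -1.07 for Os09g0493000 (adjusted p = 0.000342), -0.95 for Os05g0241100 (adjusted p = 0.000377) and -0.78 for Os01g0816100 (adjusted p = 0.00305). These 6 kept their direction and their call under every alternative run, where Os01g0816100 had no value without long replicate 2 or without long replicate 3. Exposure and slide cannot be told apart for any of the 14.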

How the results depend on the processing

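For the 20 loci named for their ratio or difference, 313 of 338 values under alternatives kept direction and side of the threshold, 4 lost a call, 6 gained one and 15 turned direction, all in loci without a call. Turned were Os04g0203600 (-0.55 with Agilent's processed signals, -0.66 with the deposited ratios centred), Os01g0370900 (-0.92 and -1.02), Os09g0400400 (-0.75 and -0.85), Os08g0156100 (-0.0455 centred, -0.0048 with median centring, and -0.0928 to 0.27 leaving out an array), Os03g0226200 (0.21 with offset 16, 0.19 without the short arrays on slide 2, and -0.49 to 0.54 leaving out an array) and Os04g0206600 (-0.0107 to 0.42 leaving out an array, the lowest without long replicate 1); the causes were not tested.

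Over the 180 loci, calls higher fell from 84 to 40 with Agilent's processed signals and to 32 with the deposited ratios centred, and the median difference to 0.221 and 0.118. Calls lower fell from 20 to 11 with a trended, robust prior and to 11 without the short arrays on slide 2. With the control measured throughout, calls higher were 14 with the deposited ratios centred, 19 with the trended prior and 18 without slide 2, and calls lower 22 with median centring (against 21 higher), 6 with the trended prior and 8 without slide 2. Leaving out an array gave 62 to 99 calls higher, 10 to 22 lower and medians of 0.311 to 0.577, and 19 to 33 higher and 6 to 14 lower with the control measured. Over all genes, short calls higher ran from 5629 to 7126 and lower from 4036 to 5497 when an array was left out (main 7180 and 5675), with 3817 and 2499 without slide 2 and a split of 5669 to 7649 with Agilent's processed signals. Long calls higher ran from 6338 to 7847 and lower from 5881 to 7202, and calls higher fell from 7913 to 5169 with median centring, against 8609 lower.

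The control channel gave 0 to 33 calls higher and 0 to 6 lower among the members when an array was left out. Scaling to the 75th percentile gave 18 and 58, and Agilent's green signal 1 and 0. Over all genes, calls in the control channel numbered 0 to 3747 when an array was left out. That channel had 5912 calls over all genes with that scaling, 5 with the green signal and 983 in the main fit. With the replicate block it gave 0 and 0 (45 members under an unadjusted p of 0.05), while the ratios gave 83 higher and 18 lower with the replicate block (correlation of same-numbered arrays -0.17), which changed no other call count by over 1.5 times. The choice of loci gave 83 with normexp and loess, 581 at a floor of 1, 75 at a floor of 3 and 184 to 213 when an array was left out. Leaving out short slide 1 is the same as leaving out short replicate 1. Alternatives on gene families and promoter motifs were not run, since neither was held.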
